A study of Mus musculus with 8 samples.

Results

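Tight junctions seal the space between neighbouring epithelial cells near their apical border. Their strands are built from claudins and from MARVEL proteins such as occludin, junctional adhesion molecules sit beside the strands, and plaque scaffolds such as ZO-1 tie all of them to actin. Both the inner cell mass and the epiblast that forms from it are surrounded by cells that carry such junctions, and the post-implantation epiblast is itself an epithelium with tight junctions around its lumen. Described here are 10 tight junction genes of the mouse, chosen by name from the 22987 genes that the deposited tables place at a single locus: the claudins Cldn3, Cldn4, Cldn5, Cldn6, Cldn7, Cldn9 and Cldn12, occludin (Ocln), junctional adhesion molecule A (F11r) and ZO-1 (Tjp1).

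Polyadenylated RNA was sequenced in 4 libraries of mouse embryonic stem cells (mESC, the naive state of pluripotency) and 4 of epiblast stem cells (mEpiSC, the primed state). For mESC, replicates 1 and 2 were of the line ESF122 and replicates 3 and 4 of ESF175/1, and the cells were grown with leukemia inhibitory factor at 1000 units/ml and passaged as single cells with trypsin. For mEpiSC, replicate 1 was of the line EpiSC5, replicates 2 and 3 of EpiSC7 and replicate 4 of EpiSC9, and the cells were grown with FGF2 at 10 ng/ml and passaged as clumps with collagenase. Both media held 20% Knockout Serum Replacement, and both kinds of cell grew on irradiated mouse embryonic fibroblasts and were parted from them before RNA was taken from about 2000000 cells. State therefore cannot be told apart from line, growth factor or way of passage. No label says whether libraries of 1 line were separate cultures, so the p-values measure only how libraries vary, and that variation may be technical.

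Levels are deposited FPKM, the fragments of a gene per kilobase of its transcript relative to all mapped fragments, summarised as mean ± SD with n = 4 a state. Fold changes are differences in log2(FPKM + 1), mEpiSC less mESC, a scale on which low genes appear to change less than they do. Library depth, as implied by the deposited intervals, was 24800000 to 38600000 fragments. Markers of the states were read beside the labels. In mEpiSC 4 of 4 naive markers were lower, beside 14.2% of all genes, and 3 of 4 primed markers higher, beside 23.1%. None of 4 general pluripotency markers passed the test, which called 37.3% of all genes. Zfp42, a naive marker, was at most 0.491 FPKM in mEpiSC, so it was tested through mESC alone and could hardly be called higher. The libraries of replicate 4 (mESC 4 and mEpiSC 4) stood apart from the other 6 on the second principal component, which held 16.9% of the variance, with scores of 33.5 and 48.9 against −20.6 to −8.8. Values without them are given beside the results that they move. Among the markers of other cells, the 15 fibroblast genes summed to 15.9 to 302.9 FPKM in mESC and 233.1 to 632.2 in mEpiSC, with 4 of 14 tested higher and none lower. The 10 markers of primitive and visceral endoderm summed to 3.11 to 6.80 FPKM in mESC and 9.25 to 85.0 in mEpiSC, with 3 of 3 tested higher. Over all genes the test called 23.1% higher. Gata6 and Sox17 were under 1 FPKM in every mESC library, so they were tested through mEpiSC alone. Untested members went the other way too, with lower means in mEpiSC for Cubn (0.558 to 0.104 FPKM) and Amn (0.866 to 0.235 FPKM).

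Of the 10 genes 8 reached the level needed for testing, at least 1 FPKM in at least 4 libraries. Cldn12 rose and Cldn4 fell between mESC and mEpiSC, and the other 6 made no call (limma, Benjamini-Hochberg adjusted p under 0.05 over 11556 genes). The same test called 23.1% of all genes higher and 14.2% lower, 37.3% in all, so 2 of 8 is no more than the genome at large. The median log2 fold change of the 8 was 0.27, beside 0.083 over all genes. The ranges of the states were separate for 3 of the 8 (Cldn4, Cldn12 and Tjp1), as for 37.1% of all genes. Without the replicate 4 libraries the calls were 2 higher (Cldn12 and Tjp1) and 2 lower (Cldn4 and Cldn7), where the same setting called 3046 genes higher and 2164 lower of all 11556. These are bulk samples, in which fewer cells that express a gene and less RNA per cell cannot be told apart.

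**Figure D1:**
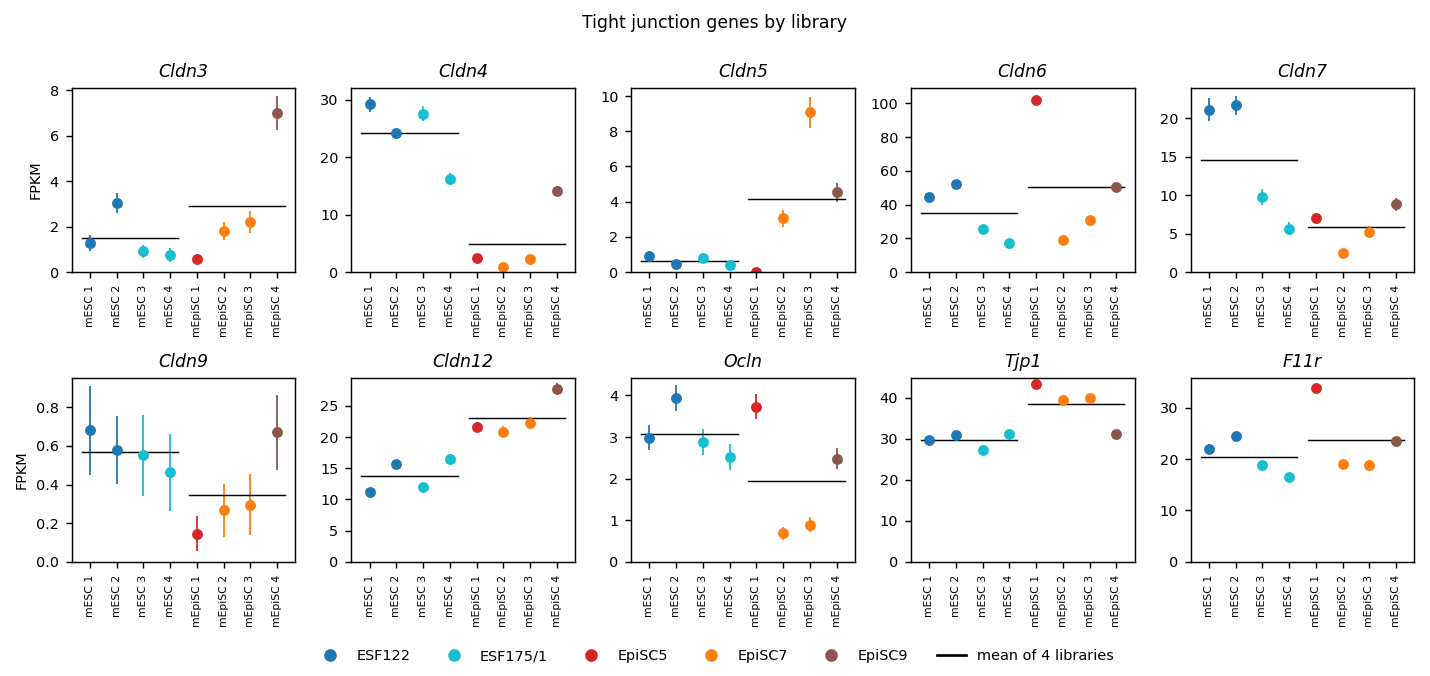
FPKM of the 10 genes in each of the 8 libraries, coloured by line; vertical bars are the deposited 95% intervals of each library (counting and assignment error only), and horizontal lines are means of 4 libraries. The mEpiSC libraries of Cldn4 lie below every mESC library, those of Cldn12 and Tjp1 above, and Cldn5 is at 0.0151 FPKM in mEpiSC 1 against 9.07 in mEpiSC 3.

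Cldn4, a barrier-forming claudin of many simple epithelia and a receptor of Clostridium perfringens enterotoxin, lies at chr5:135420993-135422804 in mm9, the build of the deposited tables, as a gene of 1 exon. It measured 29.2, 24.2, 27.6 and 16.2 FPKM in mESC 1 to 4 and 2.44, 0.878, 2.28 and 14.2 FPKM in mEpiSC 1 to 4. The 3 libraries of EpiSC5 and EpiSC7 were far below all mESC libraries, whereas that of EpiSC9 came close to the lowest of them. The means were 24.3 ± 5.79 and 4.94 ± 6.19 FPKM, a ratio of 4.92, and the log2 fold change was −2.55 (SE 0.55, 95% interval −3.80 to −1.30; limma, adjusted p = 0.0071). Without the replicate 4 libraries the adjusted p was 2.6e-04. The call was lost with the average fibroblast marker level as a covariate (log2 −2.29, adjusted p = 0.0745) and with each line reduced to 1 mean (log2 −2.29, adjusted p = 0.109).

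Cldn7, which binds EpCAM at lateral membranes of epithelial cells, lies at chr11:69778281-69781388 and has 4 exons. Its values were 21.1, 21.6, 9.78 and 5.66 FPKM in mESC 1 to 4 and 6.99, 2.44, 5.21 and 8.80 FPKM in mEpiSC 1 to 4. Both ESF122 libraries were above every other library, and the ESF175/1 libraries overlapped those of mEpiSC. The log2 fold change of −1.11 (SE 0.45, 95% interval −2.12 to −0.09) did not pass the test (limma, adjusted p = 0.082). It passed without the replicate 4 libraries (log2 −1.66, adjusted p = 0.0142), without mESC 4 alone (adjusted p = 0.025) and after quantile normalization (adjusted p = 0.046). It was further from passing without mESC 1 (adjusted p = 0.194), without mESC 2 (adjusted p = 0.189) and with 1 mean per line (adjusted p = 0.262).

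Cldn12 stood on the other side. It is an atypical claudin whose tail lacks the motif by which other claudins bind ZO proteins, and it lies at chr5:5505015-5514976 with 5 exons. Its values were 11.1, 15.7, 12.0 and 16.5 FPKM in mESC 1 to 4 and 21.6, 20.8, 22.3 and 27.7 FPKM in mEpiSC 1 to 4. All mEpiSC libraries were above all mESC libraries, and the 3 mEpiSC lines lay close together. The means of 13.8 ± 2.65 and 23.1 ± 3.11 FPKM gave a ratio of 1.68 and a log2 fold change of 0.71 (SE 0.16, 95% interval 0.36 to 1.07; limma, adjusted p = 0.0075). With 1 mean per line the adjusted p was 0.0517.

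Promoter sequence was looked at for the claudins of highest level, since the gene that fell and the gene that rose can then be read side by side. RefSeq windows of 300 bases around the start of the transcript (GRCm38.p6) were found for 9 of the 10 genes, 13 windows in all, Cldn9 having none. Of 4 motifs searched on both strands, CACCTG, the E-box to which SNAI and ZEB repressors bind, was in the windows of 6 of the 9 genes (Cldn3, Cldn4, Cldn6, Cldn7, F11r and Ocln) and not in those of Cldn5, Cldn12 or Tjp1. It is in 22.6% of all 27025 genes with a window. The stretches below hold 120 bases before the start and 30 from it, 5′ to 3′ on the gene's strand, with CACCTG or its reverse complement CAGGTG in capitals. They are chr5:134946905-134947054 (minus strand) for Cldn4, chr11:69965301-69965450 (plus) for Cldn7, chr17:23679245-23679394 (plus) for Cldn6 and chr5:5514820-5514969 (minus) for Cldn12.
Cldn4: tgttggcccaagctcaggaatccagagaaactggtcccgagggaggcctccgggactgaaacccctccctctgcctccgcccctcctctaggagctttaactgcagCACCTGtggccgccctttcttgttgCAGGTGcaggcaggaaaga
Cldn7: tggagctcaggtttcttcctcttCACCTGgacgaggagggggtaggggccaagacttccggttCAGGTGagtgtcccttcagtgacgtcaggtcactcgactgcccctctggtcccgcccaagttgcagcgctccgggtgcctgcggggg
Cldn6: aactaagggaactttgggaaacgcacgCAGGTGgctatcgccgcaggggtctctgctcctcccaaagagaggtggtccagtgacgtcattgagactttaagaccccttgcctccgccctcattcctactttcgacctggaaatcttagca
Cldn12: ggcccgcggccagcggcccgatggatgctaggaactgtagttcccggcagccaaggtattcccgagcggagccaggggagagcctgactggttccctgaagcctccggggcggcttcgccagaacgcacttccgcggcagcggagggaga

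With the first base of the transcript counted as 0, the matches start at −14 and 11 in Cldn4, at −97 and −57 in Cldn7 and at −93 and 40 in Cldn6, the last of these beyond the stretch shown. The Cldn12 stretch holds none, nor do the other windows of that gene. Cldn7 has a second window without a match. Of the 6 genes with a match only Cldn4 was called between states, and Cldn3, Cldn6, Cldn7, F11r and Ocln were not. The GRHL motif AACCNGTT was in 1 of the 13 windows, that of Cldn5 at −20, against 2.09% of all 32851 windows. The KLF motif GGGTGTGG and the ESRRB motif TCAAGGTCA were in none of them, against 3.56% and 0.423% of all windows. A match describes letters and is no evidence of binding.

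Cldn6, a claudin of embryonic epithelia and of pluripotent cells, had the highest mean of the 10 genes in both states. It lies at chr17:23816332-23819414 with 3 exons. The libraries measured 44.7, 52.4, 25.9 and 17.3 FPKM in mESC 1 to 4 and 102.2, 19.1, 30.6 and 50.5 FPKM in mEpiSC 1 to 4. EpiSC5 was highest of all libraries and EpiSC7 replicate 2 within the range of ESF175/1, so the states overlapped widely. The means of 35.1 ± 16.3 and 50.6 ± 36.8 FPKM gave a log2 fold change of 0.37 (SE 0.51, 95% interval −0.78 to 1.53; limma, adjusted p = 0.602), an interval that leaves room for a 2-fold difference upwards. Without the replicate 4 libraries the log2 fold change was −0.0009, and with the fibroblast markers as a covariate it was −0.44 (adjusted p = 0.651). The library of EpiSC5 also had the highest sum of each of the 4 lists of other cells. For endoderm this was 85.0 FPKM against 9.25 to 18.9 in the other mEpiSC libraries, for fibroblasts 632.2 against 233.1 to 343.0, for trophoblast 15.3 against 3.32 to 6.62 and for endothelium 46.3 against 10.7 to 28.3. Nearly all of the endothelial sum was Flt1, at 45.8 FPKM. Cdh5, Kdr, Tie1, Erg, Tek and Pecam1 were lower in EpiSC5 than in any other mEpiSC library. Among the endoderm markers there, Gata4 was at 18.9, Gata6 at 26.4 and Sox17 at 18.4 FPKM, while Afp and Ttr reached at most 0.113 and 0.134 FPKM in any library. Their part in the Cldn6 value was not tested.

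Cldn9, a claudin known for its need in the inner ear, lies at chr17:23819551-23820993, 136 bases from the interval of Cldn6, and its coding sequence is 75.9% identical to that of Cldn6. It was low everywhere, at 0.680, 0.577, 0.551 and 0.463 FPKM in mESC 1 to 4 and 0.145, 0.266, 0.295 and 0.670 FPKM in mEpiSC 1 to 4, and was not tested for want of level. Despite the short gap the pair was far apart in level, Cldn6 being 37.4 to 90.7 times Cldn9 in mESC and 71.8 to 704 times in mEpiSC, the highest ratio in EpiSC5. Cldn9 thus did not share the high value of Cldn6 in that line: its 0.145 FPKM there was the lowest of the 8 libraries, on 10 implied fragments. No window of 50 bases of the Cldn6 or Cldn9 transcript in GENCODE occurs in a transcript of another gene.

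Cldn3, like Cldn4 a barrier claudin and enterotoxin receptor, lies 39.3 kb from Cldn4, at chr5:135462084-135463346, in an interval that overlaps the entry Wbscr25. Its values were 1.29, 3.04, 0.923 and 0.759 FPKM in mESC 1 to 4 and 0.591, 1.81, 2.20 and 7.0 FPKM in mEpiSC 1 to 4. EpiSC9 was highest and EpiSC5 lowest, and the states overlapped (log2 0.47, SE 0.46, 95% interval −0.58 to 1.52; limma, adjusted p = 0.462). Without the replicate 4 libraries the log2 fold change turned to −0.10 (adjusted p = 0.832). The neighbours differed in their share: Cldn4 was 7.96 to 29.9 times Cldn3 in the mESC libraries and 0.484 to 4.14 times in the mEpiSC libraries, ranges that did not overlap. The strand used in counting is not given in the sources used here, so reads of Cldn3 and Wbscr25 cannot be told apart.

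Cldn5, the main claudin of endothelium and of the blood-brain barrier, lies at chr16:18776940-18778355. It measured 0.912, 0.452, 0.826 and 0.429 FPKM in mESC 1 to 4 and 0.0151, 3.05, 9.07 and 4.53 FPKM in mEpiSC 1 to 4. EpiSC7 and EpiSC9 were above all mESC libraries and EpiSC5 below all of them, on 1 implied fragment. With only 3 libraries at 1 FPKM it was not tested, and in a fit of all genes with no filter on level its log2 fold change of 1.25 (SE 0.62) did not pass (limma, adjusted p = 0.169).

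Within mEpiSC, Cldn5 was highest and lowest in the same libraries as some markers of endothelium and not others. Over all 8 libraries it differed from Cdh5 and Kdr. In EpiSC5 Cldn5 was below every mESC library, whereas Cdh5 and Kdr were above every mESC library. Cdh5 (VE-cadherin) was at 0.0164 to 0.0466 FPKM in mESC and at 0.111, 1.28, 3.21 and 1.36 FPKM in mEpiSC 1 to 4, and Kdr (the VEGF receptor 2) at 0.0115 to 0.0739 and at 0.152, 1.86, 5.16 and 1.73 FPKM. Within mEpiSC both were highest in mEpiSC 3 and lowest in EpiSC5, like Cldn5, Tie1, Erg, Tek and Pecam1. Between states, however, Tek and Pecam1 had the higher mean in mESC. Tek was at 1.34 ± 0.553 FPKM in mESC and 0.595 ± 0.391 in mEpiSC. Pecam1 was at 11.3 to 23.1 FPKM in mESC, which express it, against 0.0629 to 2.56 in mEpiSC. Flt1 was highest in EpiSC5 (45.8 FPKM), and Emcn was listed at 0 in EpiSC5 and in 2 mESC libraries. The 8 markers summed to 13.9 to 24.7 FPKM in mESC and 10.7 to 46.3 in mEpiSC, and of the 2 tested Flt1 was higher and Pecam1 lower. Their part in the Cldn5 values was not tested.

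**Figure D2:**
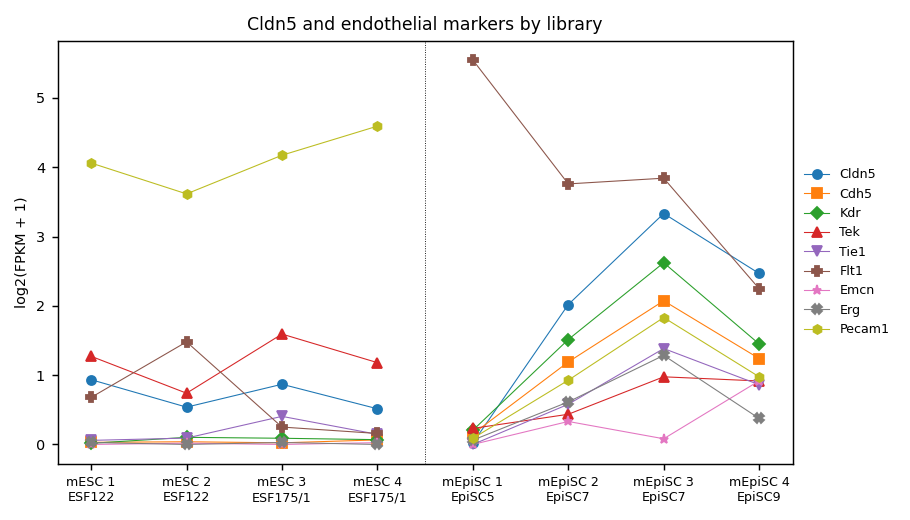
Level of Cldn5 and of 8 endothelial markers in each library as log2(FPKM + 1); lines only join the points of a gene and stand for no order. Cldn5, Cdh5, Kdr, Tie1 and Erg are near the bottom in mEpiSC 1 and highest in mEpiSC 3, while Flt1 is highest in mEpiSC 1 and Pecam1 in mESC.

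Among the partners of the claudins, occludin (chr13:101267322-101322453, 9 exons), the MARVEL protein of the strands, was low in both states. Its values were 2.99, 3.93, 2.87 and 2.52 FPKM in mESC 1 to 4 and 3.73, 0.683, 0.895 and 2.48 FPKM in mEpiSC 1 to 4. EpiSC7 was well below the mESC range, EpiSC9 just under it and EpiSC5 within it. The state difference was not called (log2 −0.59, SE 0.32, 95% interval −1.32 to 0.14; limma, adjusted p = 0.183), but it was without EpiSC5 (log2 −0.86, adjusted p = 0.039) and, in a comparison chosen after the values were seen, of EpiSC7 alone against mESC (log2 −1.18, adjusted p = 0.0043). It was weaker without mEpiSC 2 (log2 −0.36, adjusted p = 0.411) and with 1 mean per line (log2 −0.39, adjusted p = 0.591).

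F11r, the immunoglobulin-like adhesion molecule JAM-A (chr1:173367692-173394724, 10 exons), was at 21.9, 24.4, 18.8 and 16.5 FPKM in mESC 1 to 4 and 33.9, 19.0, 18.8 and 23.5 FPKM in mEpiSC 1 to 4. Apart from EpiSC5 every mEpiSC library was within the mESC range. The interval of its log2 fold change, −0.27 to 0.65 around 0.19 (SE 0.20; limma, adjusted p = 0.506), excludes a 2-fold difference in either direction. With the fibroblast markers as a covariate its log2 fold change was −0.13 (adjusted p = 0.743). Tjp1, which encodes ZO-1, the scaffold that binds claudin tails, lies at chr7:72441051-72516130 and has 28 exons. It was at 29.7, 30.8, 27.3 and 31.0 FPKM in mESC 1 to 4 and 43.3, 39.3, 40.0 and 31.2 FPKM in mEpiSC 1 to 4. The groups did not overlap, by a margin of 31.0 to 31.2 FPKM, and the difference just missed the test (log2 0.35, SE 0.12, 95% interval 0.07 to 0.63; limma, adjusted p = 0.0509). It passed without mEpiSC 4 (log2 0.45, adjusted p = 0.0089) and remained under 2-fold. The adjusted p rose to 0.129 with median ratio scaling, 0.282 with 1 mean per line and 0.306 with the fibroblast markers as a covariate.

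Because FPKM is a level per length of transcript, the genes can be ranked. In mESC the order by mean was Cldn6, Tjp1, Cldn4, F11r, Cldn7 and Cldn12, with the ranges of all neighbours overlapping, then after a gap Ocln, Cldn3, Cldn5 and Cldn9, again with overlapping neighbours. In mEpiSC it was Cldn6, Tjp1, F11r and Cldn12, then after a gap Cldn7, Cldn4, Cldn5, Cldn3, Ocln and Cldn9. The range of Cldn9 lay just below that of Ocln but overlapped those of Cldn3 and Cldn5. Cldn4 and Cldn7 were thus in the upper block in mESC and in the lower block in mEpiSC.

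Shares of the claudin total are the same values divided by their sum, so they add no support to this order. Summed over the 26 claudin symbols of the tables, the level was 106.6 ± 27.5 FPKM in mESC and 122.2 ± 42.1 in mEpiSC, a ratio of 1.15, with no test made of the sum. The share of Cldn4 in it was 23.2 ± 4.94% in mESC and 3.56 ± 3.83% in mEpiSC, and that of Cldn7 was 12.8 ± 4.51% and 4.65 ± 1.11%. Cldn6 held 31.5 ± 7.33% and 38.1 ± 16.9%, reaching 63.0% in EpiSC5, and Cldn12 held 13.9 ± 5.62% and 20.5 ± 6.19%. Each library had 5 to 8 claudin symbols at 1 FPKM or more. The symbol Cldn25 held 14.5 ± 5.46% and 23.5 ± 6.53%; in RefSeq that entry on chromosome 16 is now Cldnd1, a claudin-domain protein, and without it and 2 other symbols since renamed (Cldn26 and Cldn27) the ratio of sums was 1.03, a count chosen after the data were seen.

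**Figure D3:**
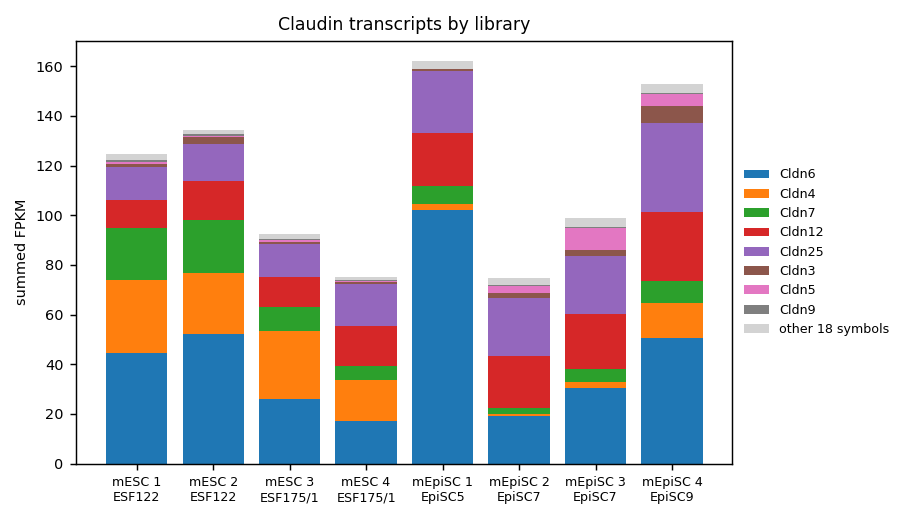
Summed FPKM of the 26 claudin symbols in each library, stacked by gene. The Cldn4 layer is thicker in every mESC library than in any mEpiSC library, while the Cldn7 layers of the states overlap. Cldn6 is the thickest layer in most libraries and holds 63.0% in EpiSC5, and the height varies from 74.9 to 162.1 FPKM.

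Other genes of the junction were taken from 6 lists with 50 members, of which 29 were tested: 6 were higher in mEpiSC, 4 lower and 19 made no call, with a median log2 fold change of 0.10. Over all genes the test called 23.1% higher and 14.2% lower, 37.3% in all, so these counts are no more than the genome at large. With each line reduced to 1 mean, Cldn25, Cgnl1, Mpdz, Epcam and St14 lost their calls (limma, adjusted p 0.057 to 0.288). Apart from Cldn25 (14.4 ± 1.72 to 26.9 ± 6.04 FPKM, log2 0.84, SE 0.16; limma, adjusted p = 0.0040) no other claudin reached the level for testing. Cldn11, the claudin of myelin and Sertoli cells, was at 0.0738 ± 0.0264 FPKM in mESC and 1.48 ± 0.515 in mEpiSC without overlap, and passed in the fit without a filter (log2 1.18, SE 0.16; limma, adjusted p = 0.0018).

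Of the other immunoglobulin-like junction proteins, a list of 4 without F11r, 3 were tested and all 3 were called, beside 37.3% of all genes. Jam2 (JAM-B) measured 34.2, 16.8, 14.5 and 7.53 FPKM in mESC 1 to 4 and 0.702, 1.98, 2.70 and 0.923 FPKM in mEpiSC 1 to 4, and fell (log2 −2.79, SE 0.42; limma, adjusted p = 0.0013). Jam3 (JAM-C), its binding partner, rose, and its means were 8.01 ± 3.48 and 25.8 ± 2.85 FPKM (log2 1.65, SE 0.26; adjusted p = 0.0017). Cxadr, the coxsackievirus and adenovirus receptor, rose as well, with 6.10 ± 1.34 and 22.7 ± 4.73 FPKM (log2 1.74, SE 0.19; adjusted p = 2.9e-04). None of these 3 genes overlapped between states. Of the windows of 50 bases in the Jam3 transcript 18.8% also occur in a transcript of another gene, and of those of Cxadr 4.83%, so their levels are less certain.

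At tricellular contacts, Ildr1 (angulin-2) fell from 3.78 ± 1.04 to 0.299 ± 0.179 FPKM (log2 −1.86, SE 0.19; limma, adjusted p = 2.4e-04). Every mEpiSC library had Ildr1 under 1 FPKM (0.143 to 0.545), so it reached the level for testing through mESC alone. A gene that enters the test in this way can hardly be called higher. Its relative Lsr (angulin-1) measured 21.3 ± 4.43 and 31.2 ± 6.91 FPKM (log2 0.53, SE 0.19; adjusted p = 0.056, and 0.047 with libraries paired by replicate number). Among plaque scaffolds 2 of 9 tested rose and 7 made no call, beside 23.1% of all genes called higher. Cgnl1 (paracingulin) was at 4.43 ± 0.788 and 11.3 ± 3.72 FPKM and rose (log2 1.14, SE 0.23; adjusted p = 0.0055), as did Mpdz (MUPP1), at 4.78 ± 3.49 and 11.3 ± 2.42 FPKM with overlapping ranges (log2 1.25, SE 0.36; adjusted p = 0.025). With the fibroblast markers as a covariate the adjusted p was 0.087 for Cgnl1 and 0.234 for Mpdz, and without mESC 3 or 4 or mEpiSC 1, 2 or 3 that of Mpdz was 0.053 to 0.068.

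Of 8 polarity proteins only Mpp5 (PALS1) was called, and it rose, the means being 7.17 ± 0.850 and 15.1 ± 3.33 FPKM (log2 0.96, SE 0.16; limma, adjusted p = 0.0021). Of EpCAM and the proteases and inhibitors that act on it, 2 of 4 tested fell, beside 14.2% of all genes called lower. Epcam measured 83.6 ± 5.09 and 50.7 ± 26.1 FPKM (log2 −0.82, SE 0.28; adjusted p = 0.042), and St14 (matriptase) 12.7 ± 2.36 and 3.62 ± 4.12 FPKM (log2 −1.90, SE 0.47; adjusted p = 0.013). As with Cldn4, EpiSC9 was unlike the other mEpiSC lines, at 89.4 FPKM for Epcam against 33.1 to 43.2 and at 9.73 FPKM for St14 against 0.969 to 2.52. The Epcam call was lost without any single library other than mEpiSC 4 (adjusted p 0.076 to 0.111), and with the fibroblast markers as a covariate neither passed (adjusted p = 0.334 and 0.104). Without the replicate 4 libraries the log2 fold change was −1.13 for Epcam (adjusted p = 0.0010) and −2.53 for St14 (adjusted p = 6.3e-04).

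**Figure D4:**
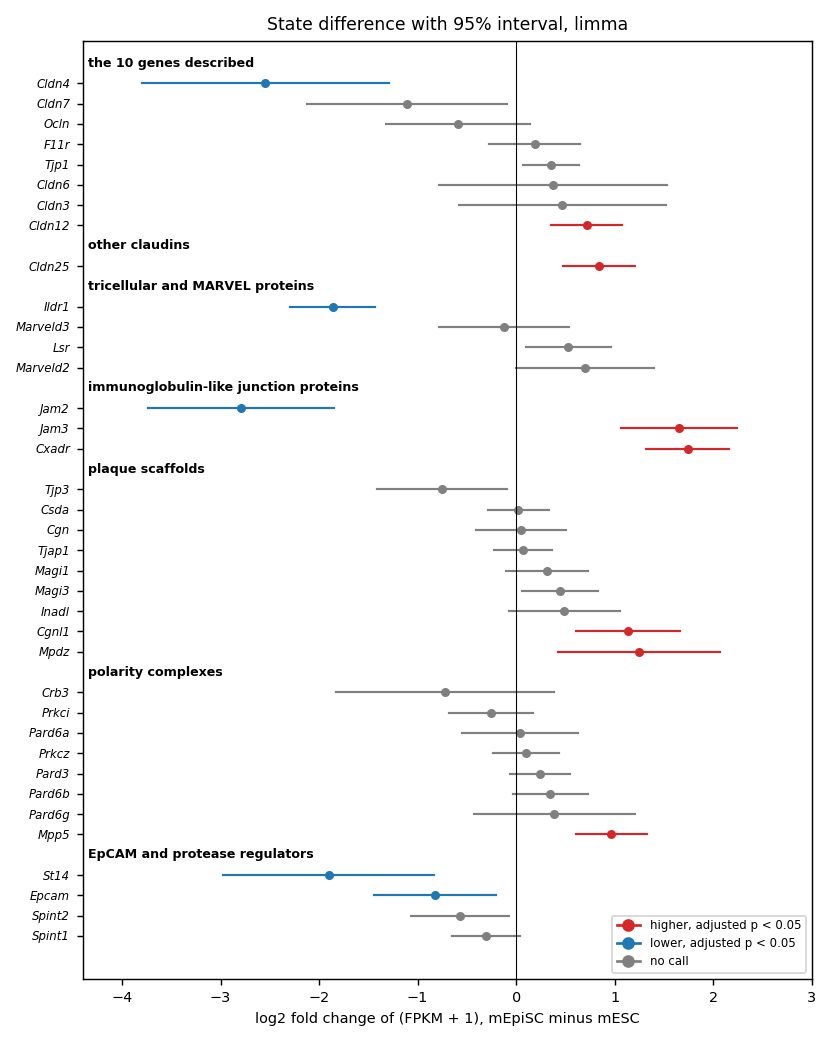
Difference between states in log2(FPKM + 1), mEpiSC less mESC, with 95% intervals, for the 8 tested genes of the 10 described and the 29 tested genes of the other junction lists. Points are red where the gene was called higher, blue where lower and grey where not called; Cldn4 and Jam2 lie farthest to the left and Jam3 and Cxadr farthest to the right.

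Lines were also compared within a state. Between the mESC lines none of the 8 tested genes was called (limma, Benjamini-Hochberg), and the test called 0.762% of all genes. At an unadjusted p under 0.05 there were 4 of the 8, and 14.9% of all genes. Cldn7 was lower in ESF175/1 than in ESF122 by −1.40 on the log2 scale (SE 0.33; adjusted p = 0.144) and Cldn6 by −1.16 (SE 0.27; adjusted p = 0.146), and both passed without mESC 3 (adjusted p = 0.040 and 0.037), when ESF175/1 is a single library assumed to vary like the rest. Over the 3 mEpiSC lines an F test called 2 of 8, against 2.6% of all genes, with EpiSC5 and EpiSC9 each resting on 1 library assumed to vary like the lines with 2. These were Cldn4 (adjusted p = 0.047), higher in EpiSC9 than in EpiSC5 by 2.14 on the log2 scale, and Ocln (adjusted p = 0.047), where EpiSC7 less EpiSC5 was −1.40. Cldn6 (adjusted p = 0.0506) and Cldn3 (0.0536) lay next to the threshold. The calls depended on single libraries. Both were lost without mESC 1, mESC 2, mEpiSC 2 or mEpiSC 3, and further genes were called without mESC 3 or mESC 4. The share of all genes called in those settings is not given here, so these changes cannot be read as particular to the 8 genes. Of the other junction genes Epcam (adjusted p = 0.043), St14 (0.026) and Pard6g (0.0497) were called, each highest in EpiSC9. The EpiSC9 values of all these genes are mEpiSC 4 alone, 1 of the libraries that stood apart, and the 3-line test cannot be made without it.

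**Figure D5:**
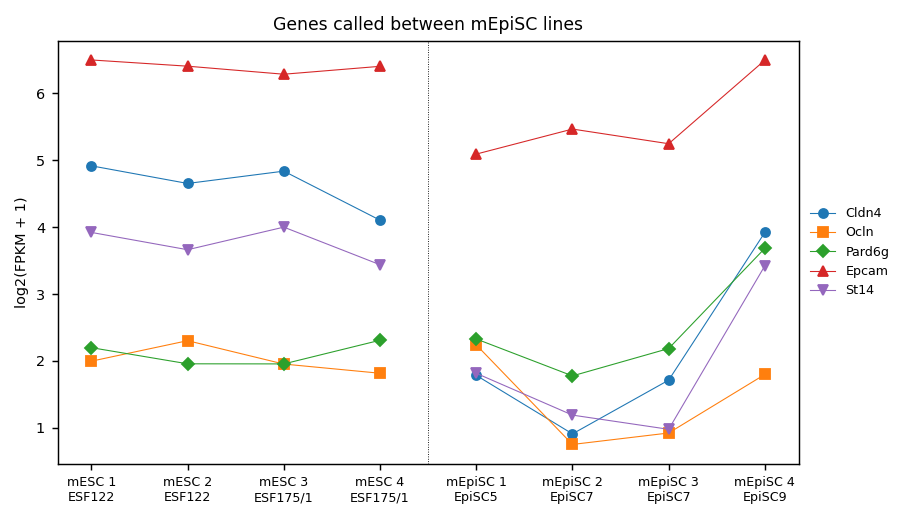
Level as log2(FPKM + 1) of the 5 junction genes called in the F test over the 3 mEpiSC lines, in all 8 libraries; lines only join the points of a gene. EpiSC9 (mEpiSC 4) is highest among mEpiSC for Cldn4, Epcam, St14 and Pard6g, and EpiSC7 lowest for Ocln.

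The genes most alike to the pair that was called were found by the root mean square difference of centred log2(FPKM + 1) over the 8 libraries, a description without a test. Nearest to Cldn12 were Smad4 (0.0708), Trpc4ap (0.0713), Tmem206 (0.0716), Npepl1 (0.0813) and Gnb4 (0.0833), against a median of 0.481 over all genes. Nearest to Cldn4 were Sfn (0.396), 1700007K13Rik (0.427), St14 (0.441), Apoc1 (0.480) and 1700001L05Rik (0.497), against a median of 1.57. St14 is the only one of these 10 that is on a junction list. Sfn, the epithelial 14-3-3 protein, had means of 10.0 FPKM in mESC and 1.78 in mEpiSC.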

How the data were processed

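The authors deposited 1 table a library, which lists FPKM for every gene with its 95% interval and a status. TopHat2 2.0.6 and Cufflinks 2.0.2 were used on mm9, per the submitters' processing notes. For annotation, options and strand, the choice is not given in the sources used here. The analysis left 0 columns unused. Low genes implying under 100 fragments came out whole for 80.3% to 81.2% of values (tolerance 0.05). The 10 genes and all lists were chosen with earlier results of these data known; 1 plaque gene was taken off its list afterwards and is not reported here.

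States were compared by limma 3.58.1 in R 4.3.3, with a variance trend and robust moderation (statmod 1.5.0), on log2(FPKM + 1). The 11556 genes tested lie at 1 locus and reach 1 FPKM in at least 4 libraries; calls needed an adjusted p (Benjamini-Hochberg) under 0.05. For lines the same fit had a mean for each line. The procedure was tested on simulated data. Named were the 10 genes, claudins at 1 FPKM in at least 4 libraries, up to 4 called genes per junction list, the 5 genes most alike to the largest rise and fall, and cell markers; any other gene (Cldn11, Lsr) was chosen after its values were seen. Libraries that share a replicate number deviated together from their state's mean (correlation 0.22, 0.15, 0.18 and 0.51 in the order of the numbers, each over 0.1) and were by that bound taken as pairs, which no label states; the highest correlation with another number was 0.12, 0.19, 0.21 and −0.24, so replicates 2 and 3 did not correlate best with their own number. The main comparison has no block. Start positions in the tables count from 0 and are given here from 1. Promoters are from RefSeq (GRCm38.p6), and transcripts and coding sequences from GENCODE vM21; no coordinates were mixed.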

Additional observations from a re-analysis of the deposited data

Results flagged for a closer look

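In groups of 4 libraries the gap between the highest or lowest library and its nearest neighbour was divided by the range of the group. This was done for 21 items in 2 states, 42 groups in all. The items were the 10 genes described, the other junction genes called between states and the summed claudin level. Dixon's 95% critical value, which chance passes in about 1 in 20 groups, was passed in 2 groups, neither of them of the 10 genes described. Cldn25 in mEpiSC had a value of 0.842, because EpiSC9 was at 35.9 FPKM against 23.3 to 24.96 in the other 3 libraries. Mpp5 in mEpiSC had a value of 0.854, because EpiSC5 was at 20.1 FPKM against 13.1 to 13.9 in the others. Both genes were above all mESC libraries in every mEpiSC library.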

How the results depend on the processing

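Among the 10 genes 1 was called higher and 1 lower in mEpiSC, and among the other junction genes 6 and 4. With 1 mean per line these became 0 and 0, and 3 and 2 (all genes 865 and 557, against 2665 and 1640). With replicates 1 to 3 only the 10 genes gave 2 and 2 (all genes 3046 and 2164), and with EpiSC7 against all mESC, a setting chosen after seeing the data, also 2 and 2 (all genes 2431 and 1561). Quantile normalization gave 2 lower (all genes 2187 higher and 2211 lower). With the fibroblast covariate 0 of the 10 and 2 of the other junction genes were lower (all genes 1833 higher and 916 lower). Leaving out single libraries gave 1 to 2 higher and 1 to 2 lower among the 10, and 5 to 8 and 3 to 6 among the others (all genes 1904 to 2820 and 1209 to 1969). Blocked by replicate number, the 10 genes kept 1 and 1, with no call changed, and the others had 8 and 5. Lsr (adjusted p = 0.047), Magi3 (0.038) and Spint2 (0.020) were added, while the calls over all genes rose as well, to 3150 and 2055. Between mESC lines the count of 0 also moved when single libraries were left out. Over the mEpiSC lines the count of 2 became 1 with a pseudocount of 0.1 and 4 with one of 5. It became 0 with no filter, with a mean of at least 5 FPKM and with median ratio scaling, and it also moved without single libraries. Totals over all genes are not given here for the settings of the line comparisons. The causes were not tested. No called difference of a named gene reversed its direction. Of all genes called, 61.9% were higher in mEpiSC as deposited and 49.7% after quantile normalization, which moved the median log2 fold change from 0.083 to −0.018. The deposited FPKM carry no counts, so depth limits Cldn9 (10 to 48 implied fragments) and Cldn5 in EpiSC5 most.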
